A study of Homo sapiens with 4 samples.

Results

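The 10 genes described here encode basement membrane collagens, laminins and proteoglycans: *COL4A1*, *COL4A2*, *COL18A1*, *LAMA4*, *LAMB1*, *LAMC1*, *NID1*, *NID2*, *HSPG2* and *AGRN*. They were taken by gene symbol from an RNA-seq table of 12033 genes, and all 10 were present. All 10 were also among the 7589 genes whose mean over the 4 libraries was 2 RPKM or more, which are the genes compared below. RPKM is the number of mapped reads scaled to the length of the transcript and the size of the library. The cells were BJ fibroblasts, a human line immortalized by hTERT, that carry an inducible RASG12V oncogene. In all 4 conditions the oncogene had been switched on with 4-hydroxytamoxifen (4-OHT) for 14 days, a treatment that drives such cells into oncogene-induced senescence. The conditions differed in the CRISPR-Cas9 guide with which the cells were transduced. sgRNA-NT is a control guide without a target, sgRNA-AP1-69 and sgRNA-AP1-71 are guides 69 and 71 against the AP1-bound enhancer Enh-AP1-OIS1, and sgRNA-FOXF1 cuts *FOXF1*, the gene assigned to that enhancer. The paper reports that after this treatment cells with either enhancer guide or the *FOXF1* guide showed less senescence staining and more proliferation than control-guide cells. Senescence state and guide therefore cannot be told apart in the values below. No library from cells without RAS induction was analysed here. Each condition is 1 library of transduced cells, for which no cloning step is described. No value below therefore has a replicate error. The only spread that can be judged is that between the 2 enhancer guides, which are not replicates of 1 guide. The 3 targeted libraries share the sgRNA-NT library as their control, so a deviation of that library enters all 3 of their ratios.

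Basement membranes are thin sheets of extracellular matrix under epithelia and endothelia and around muscle, fat and nerve cells. Laminin trimers, each of an α, a β and a γ chain, assemble into a network at the cell surface, and type IV collagen trimers form a second network that is joined by covalent cross-links. Nidogens bind laminin and type IV collagen, and the heparan sulfate proteoglycans perlecan, agrin and type XVIII collagen link the sheet to receptors and store growth factors. Fibroblasts secrete several of these proteins and supply them to the basement membranes of neighbouring tissue.

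*COL4A1* and *COL4A2* lie head to head on chromosome 13, and the DNA between their start sites belongs to both genes. It is shown because these genes are adjacent and both were at least 2-fold below sgRNA-NT in every targeted library. The RefSeq start sites leave 126 bases between them (chr13:110307158-110307283, GRCh38.p14, + strand, with *COL4A1* to the left on the minus strand and *COL4A2* to the right on the plus strand), of which 80.2% are G or C. The window upstream of *LAMA4* (chr6:112254568-112254817, GRCh38.p14, minus strand) is shown for contrast, because *LAMA4* was the only member above sgRNA-NT. Its G and C content was 48.4%, against a median of 58.0% over all promoter windows. Capitals mark a CCAAT box and a GC box (GGGCGG) in the interval, and in *LAMA4* GTAAATA, the reverse complement of the forkhead-type motif TATTTAC.
COL4A1-COL4A2 interval: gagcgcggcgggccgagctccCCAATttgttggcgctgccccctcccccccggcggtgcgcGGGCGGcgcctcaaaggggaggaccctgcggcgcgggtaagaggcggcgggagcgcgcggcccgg
LAMA4 upstream: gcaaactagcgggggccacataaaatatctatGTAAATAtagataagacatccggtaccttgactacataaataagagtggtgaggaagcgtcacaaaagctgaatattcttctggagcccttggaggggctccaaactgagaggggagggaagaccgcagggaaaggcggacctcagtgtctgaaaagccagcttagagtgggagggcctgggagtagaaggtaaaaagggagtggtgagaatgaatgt

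RefSeq windows of 250 bases before the start site were at hand for 9 of the 10 members, as 10 windows because *COL18A1* has 2, and motifs were searched in them on both strands. A GC box (GGGCGG) was found in 9 of the 10 windows, all but that of *LAMA4*, and in 42.6% of all 35116 windows. CCAAT was found in the windows of *COL4A1*, *COL4A2*, *NID1* and *NID2*, and in 32.0% of all windows. The *COL4A1* and *COL4A2* windows overlap, so both of their motifs were counted in each. The AP1 motif TGACTCA was in none of the 10 (4.2% of all windows), nor was the forkhead motif TGTTTAC (3.0%). TATTTAC was in that of *LAMA4* alone (2.4% of all windows). These matches describe letters in a window and say nothing of binding.

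Of the libraries as a whole, *FOXF1* was at 29.6 RPKM with sgRNA-NT, 11.1 and 7.8 RPKM with guides 69 and 71, and 25 RPKM with sgRNA-FOXF1. For that last guide the paper reports an effective knockout by western blot, which measures protein. The cause of the mRNA level was not tested. *HRAS*, the gene of the inducible oncogene, was at 829.4, 446.4, 427.4 and 707.6 RPKM in the same order. Most transcripts of the mitochondrial genome were also lower, with 7, 10 and 5 of 13 at least 2-fold below sgRNA-NT with guide 69, guide 71 and sgRNA-FOXF1. *MT-ND3* was higher in each (log2 ratios 0.37, 0.28 and 0.43). *MT-CO1* and *MT-CO2* had the same value in every library, and *MT-CO3* equalled the control with sgRNA-FOXF1. The fibroblast markers summed to 4083 RPKM with sgRNA-NT and to between 5514 and 5663 RPKM in the targeted libraries, with 8 of 9 compared and *FAP* at the floor of the table. Their median log2 ratios were -0.08, -0.04 and 0.23. *VIM* and *S100A4* made up most of that sum and were higher than in the control. Of the fibrillar collagen chains listed, *COL1A1* was at 120.6, 53.7, 42.5 and 115.6 RPKM, lower with both enhancer guides like most members. *COL1A2* was at 287, 189.4, 167.1 and 292.3 RPKM. *COL3A1* was above the control in every targeted library, at 32.3, 40.3, 41.4 and 58.5 RPKM. Of 8 endothelial markers only *TIE1* was in the table (1.0 to 3.3 RPKM), of 8 epithelial markers *KRT8* and *KRT18* (together 80.5 to 144.1 RPKM), and of 6 leukocyte markers *CD14* (6.0 to 9.8 RPKM). Of 6 smooth muscle and pericyte markers, 3 were in the table, summing to 38.0 to 56.9 RPKM. Among them *CSPG4*, a proteoglycan of pericytes, was at 32.7, 16.1, 11.9 and 28.1 RPKM. *ACTA2* was above the control in every targeted library, at 23.2, 28, 25.1 and 25.8 RPKM, and *CNN1* was at the floor. The part of *HRAS*, of the mitochondrial transcripts and of these markers in the values below was not tested. In bulk RNA, fewer cells that make a transcript and less of it per cell cannot be told apart.

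Transcripts of the type IV collagen chains, which form the sheet-like collagen network, were lower in every targeted library. *COL4A1*, the α1(IV) chain, was at 59.1 RPKM with sgRNA-NT, 21.7 RPKM with guide 69, 17.2 RPKM with guide 71 and 12 RPKM with sgRNA-FOXF1. Its log2 ratios to sgRNA-NT were -1.45, -1.78 and -2.30, or 2.72-fold, 3.44-fold and 4.93-fold lower. *COL4A2*, the α2(IV) chain of the same trimer, was at 82.3, 32.4, 22.2 and 24.1 RPKM in the same order, with log2 ratios of -1.34, -1.89 and -1.77. With sgRNA-FOXF1, *COL4A1* ranked 17th from the lowest log2 ratio among the 7589 genes, and *COL4A2* ranked 55th. Both genes were well above the table's floor of 1 RPKM in all 4 libraries. The trimer holds 2 α1 chains for each α2 chain, whereas the ratio of *COL4A1* to *COL4A2* mRNA was 0.718 with sgRNA-NT, 0.670 and 0.775 with guides 69 and 71, and 0.498 with sgRNA-FOXF1. The annotated genes overlap at their 5' ends (*COL4A1* at chr13:110801310-110959504, minus strand, and *COL4A2* at chr13:110958159-111165556, plus strand, both GRCh37), but exons of their canonical transcripts do not.

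**Figure D1:**
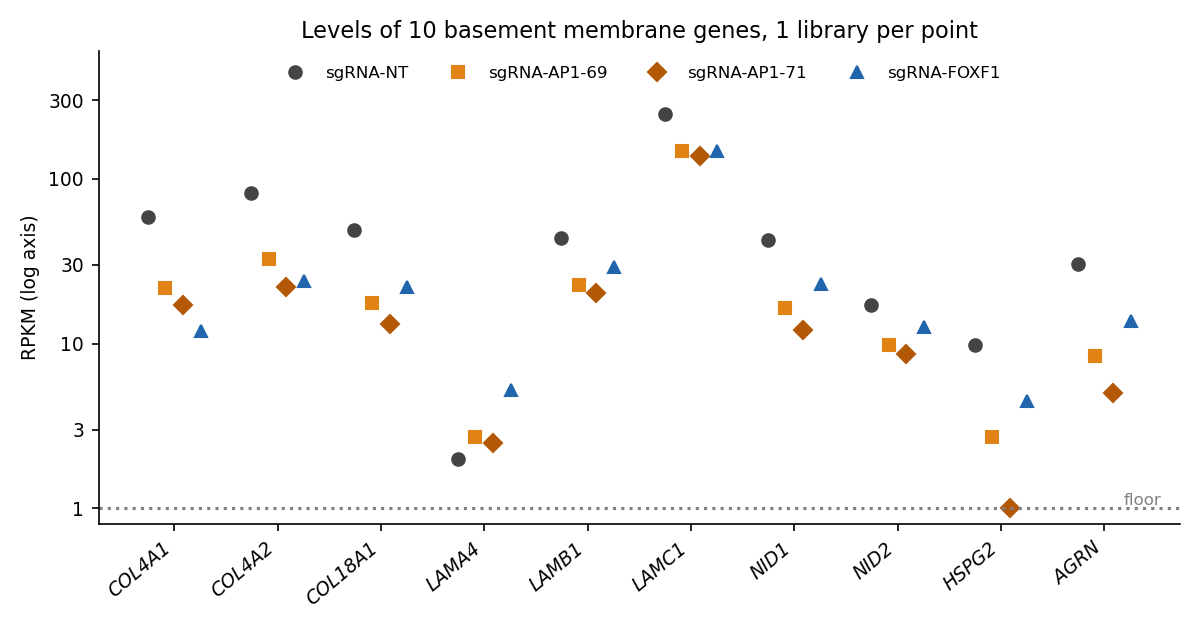
Levels of the 10 members in RPKM on a log axis, with 1 point per library for sgRNA-NT, both enhancer guides and sgRNA-FOXF1, and the floor of the table at 1 RPKM. Of the 10 genes, *LAMA4* alone had its lowest point in sgRNA-NT, and *HSPG2* reached the floor with guide 71.

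The laminin chains differed among themselves. *LAMC1*, the γ1 chain common to most laminins, was the most abundant member in every library at 247.2, 147.7, 138.2 and 148.7 RPKM (sgRNA-NT, guide 69, guide 71, sgRNA-FOXF1), with log2 ratios of -0.74, -0.84 and -0.73. *LAMB1*, the β1 chain, was at 44, 22.7, 20.2 and 29.0 RPKM, with log2 ratios of -0.95, -1.12 and -0.60. *LAMA4*, the α4 chain found in laminins of vessels and mesenchymal tissue, was at 2.0, 2.7, 2.5 and 5.2 RPKM, with log2 ratios of 0.43, 0.32 and 1.38. *LAMC1* and *LAMB1* were thus below the control in all 3 targeted libraries and *LAMA4* above it. The 2.6-fold higher level of *LAMA4* with sgRNA-FOXF1 was above 98.8% of all genes compared, although its levels lay near the floor and were given to 1 decimal. The ratio of *LAMC1* to *LAMA4* mRNA was 123.6 with sgRNA-NT and 54.7, 55.3 and 28.6 in the targeted libraries. That of *LAMC1* to *LAMB1* stayed between 5.13 and 6.84.

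*NID1*, nidogen-1, which bridges laminin γ1 and type IV collagen, was at 42.5 RPKM with sgRNA-NT, 16.4 and 12.1 RPKM with the enhancer guides and 23.0 RPKM with sgRNA-FOXF1. Its log2 ratios were -1.37, -1.81 and -0.89. *NID2*, its paralog nidogen-2, was at 17.2, 9.8, 8.6 and 12.6 RPKM, with log2 ratios of -0.81, -1.0 and -0.45. For both nidogens the sgRNA-FOXF1 library lay between the control and the enhancer guides. The ratio of *NID1* to *NID2* was 2.47 with sgRNA-NT and 1.67, 1.41 and 1.83 in the targeted libraries. Of the *NID2* canonical transcript, 22.2% overlaps exons of *RTRAF* on the opposite strand (listed under its older symbol, at 8.6, 10.2, 11.1 and 8.9 RPKM), and the sources used here do not give the strand setting of the counting.

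Of the heparan sulfate proteoglycans, *HSPG2* and *AGRN* held the lowest ratios to sgRNA-NT among the members with both enhancer guides. *HSPG2*, the perlecan core protein, measured 9.8 RPKM in the control, 2.7 RPKM with guide 69 and 4.5 RPKM with sgRNA-FOXF1, and with guide 71 it was at the floor of 1.0 RPKM. It was thus 3.63-fold lower with guide 69, at least 9.8-fold lower with guide 71 and 2.18-fold lower with sgRNA-FOXF1, and with guide 71 it ranked 2nd from the lowest log2 ratio among all genes compared. *AGRN*, agrin, was at 30.3, 8.4, 5.0 and 13.7 RPKM, or 3.61-fold, 6.06-fold and 2.21-fold lower. *AGRN* did not reach the floor, and ranked 19th from the lowest with guide 69 and 15th with guide 71. *COL18A1*, the type XVIII collagen core protein from which endostatin is cut, was at 48.6, 17.6, 13.1 and 21.9 RPKM, with log2 ratios of -1.47, -1.89 and -1.15. With the enhancer guides it lay beside the type IV collagen chains and cannot be put in order with them. For these 3 genes, as for the nidogens, the sgRNA-FOXF1 value lay between those of sgRNA-NT and both enhancer guides. Opposite-strand exons of *SLC19A1* (1.3 to 2.1 RPKM) overlap 28.9% of the *COL18A1* transcript, and those of *LDLRAD2* overlap 11.6% of *HSPG2*. Among the members other than these and *NID2*, opposite-strand overlap was at most 2.85%.

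Summed by length-scaled level, the members came to 583 RPKM with sgRNA-NT, 282.1 RPKM with guide 69, 240.1 RPKM with guide 71 and 294.7 RPKM with sgRNA-FOXF1. The targeted libraries thus held 48.4%, 41.2% and 50.5% of the control sum. The makeup of the sum differed too. Laminin chains made up 50.3% of it with sgRNA-NT and 61.4%, 67.0% and 62.1% in the targeted libraries, while the type IV collagen chains made up 24.3% and then 19.2%, 16.4% and 12.2%. The proteoglycans made up 15.2% with sgRNA-NT, 10.2% and 7.96% with the enhancer guides and 13.6% with sgRNA-FOXF1. In order of level, *LAMC1* came first in all 4 libraries, *COL4A2* was next in all but sgRNA-FOXF1, where *LAMB1* was, and *LAMA4* and *HSPG2* were the lowest pair throughout. In sgRNA-NT, *COL18A1*, *LAMB1* and *NID1* lay within 42.5 to 48.6 RPKM, and without replicates such neighbours cannot be put in order.

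Counted with a 2-fold limit, 6 of the 10 members were lower with guide 69 (3.31% of all genes compared), 8 with guide 71 (6.39%) and 5 with sgRNA-FOXF1 (4.95%). *NID2* met the limit exactly with guide 71. *COL4A1*, *COL4A2*, *COL18A1*, *HSPG2* and *AGRN*, 5 of 10, were lower at this limit in all 3 targeted libraries, as were 1.71% of all genes. None was 2-fold higher with guide 69 (1.34% of all genes) or guide 71 (3.81%), and *LAMA4* alone was with sgRNA-FOXF1 (3.2%). At 1.5-fold the counts were 9 with guide 69 (9.92% of all genes), 9 with guide 71 (14.7%) and 8 with sgRNA-FOXF1 (13.2%). The median log2 ratio of the members was -1.36, -1.80 and -1.0 with guide 69, guide 71 and sgRNA-FOXF1, and that of all genes was 0.07, 0.08 and 0.05. In each library 9 of the 10 members lay below 0, and *LAMA4* lay above it.

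**Figure D2:**
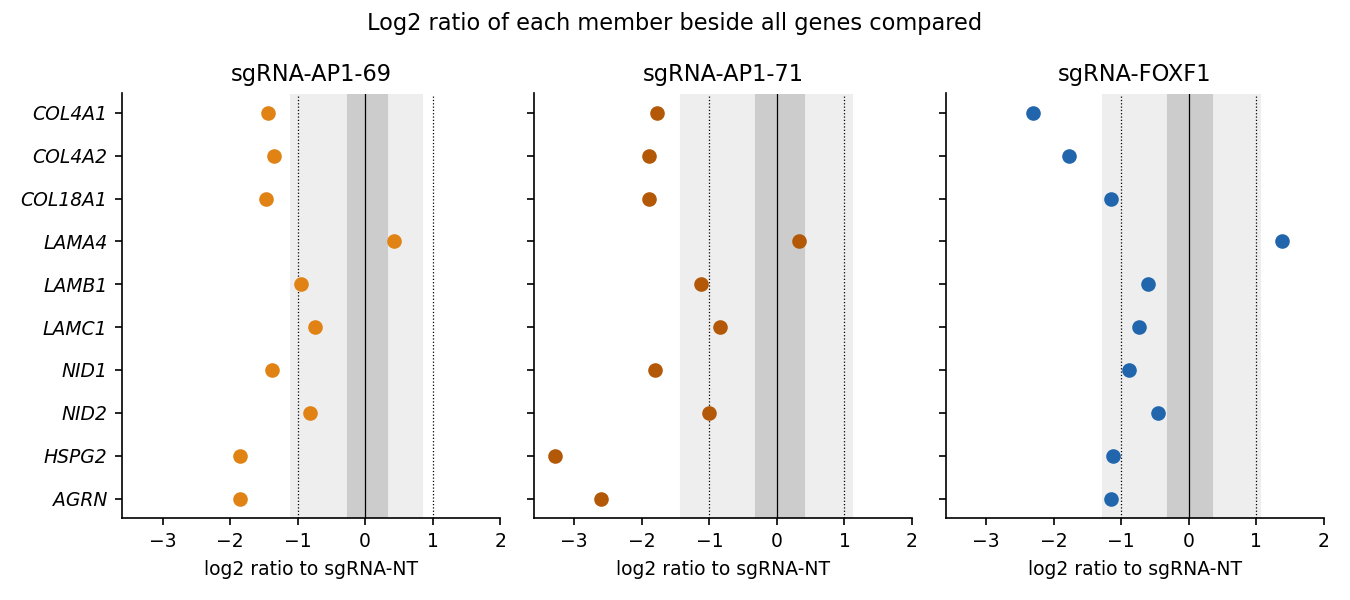
Log2 ratio to sgRNA-NT of each member with guide 69, guide 71 and sgRNA-FOXF1, with lines at 0 and at a 2-fold difference. Except for *LAMA4*, all points lie below 0, and that of *HSPG2* with guide 71 is a bound set by the floor.

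All 10 members have long transcripts, of 4870 to 14341 bases with a median of 6493, against a median of 2902 for the genes compared. Over the 7559 genes with a known length, longer genes had lower log2 ratios (Spearman's rho -0.50, -0.45 and -0.45 with guide 69, guide 71 and sgRNA-FOXF1, a description over genes that share the sgRNA-NT library). The 1597 genes in the members' range of length, the members included, had median log2 ratios of -0.28, -0.30 and -0.34, and 8.70%, 16.1% and 14.7% of them were at least 2-fold lower. When the trend with length was subtracted, the member medians were -1.03, -1.41 and -0.43. The 2-fold counts were then 5 with guide 69 (1.71% of all genes on the same corrected scale) and 6 with guide 71 (3.96%). With sgRNA-FOXF1 only *COL4A1* (-1.90) and *COL4A2* (-1.38), 2 of 10, were left (2.53%). *LAMC1* was at -0.29, -0.29 and -0.23 on this scale, *HSPG2* at -1.13, -2.37 and -0.32, and *LAMA4* at 0.84, 0.81 and 1.83. The part of transcript length in the members' values was not tested otherwise.

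The question whether the enhancer guides as a group differed from sgRNA-NT was put to limma, fitted to all 7589 genes with the guides as the only group of 2 libraries. The lone libraries are assumed to vary like the guides. A p-value here rests only on the difference between the 2 guides, in which guide and library cannot be told apart. The sgRNA-NT and sgRNA-FOXF1 libraries add no spread of their own. *COL4A1* differed by -1.61 (SE 0.21), *COL4A2* by -1.62 (SE 0.32), *NID1* by -1.59 (SE 0.26) and *AGRN* by -2.23 (SE 0.43) on the log2 scale. *HSPG2* differed by -2.58 with an SE of 0.81, the widest of the 10, and that value rests on the floor with guide 71. After Benjamini-Hochberg adjustment over all genes the members had limma p-values of 0.206 to 0.225, so none of the 10 passed 0.05 and 0% of all genes did. Without adjustment, 1842 of the 7589 genes and 8 of the 10 members had a limma p under 0.05. This outcome turned on 251 genes whose rounded, quantile-normalized values are equal with both guides. Without them, an alternative added after the data were seen, the limma fit called 1423 of 7338 genes and 9 of the 10 members (all but *LAMA4*). That fit leaves out genes by the very guide difference from which the spread is estimated on 1 residual degree of freedom, and its prior degrees of freedom went from 1.40 to infinite, so each gene took the variance of the trend. Its p-values may be too small, and its calls are given only to show how far the outcome depends on these genes. With the length trend subtracted, 373 genes and 5 members passed, namely *COL4A1*, *COL4A2*, *COL18A1*, *NID1* and *AGRN*. That fit was also added after the data were seen, and its prior degrees of freedom were 6.43. Its member median was -1.23 against -1.60 in the main fit, so these calls came with a smaller median difference and another variance estimate. They too show only how far the outcome depends on the fit.

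Between the enhancer guides themselves, all 10 members were lower with guide 71 than with guide 69, by a median log2 difference of -0.38, against 0.00 for all genes. The difference reached 1.5-fold in *HSPG2* and *AGRN*, 2 of 10 (2.85% of all genes), and that of *HSPG2* is a bound set by the floor with guide 71. *LAMC1* had the smallest, -0.10, and *AGRN* was at -0.75. With 1 library per guide this has no test. Over 7559 genes the difference also moved with the G and C content of transcripts (Spearman's rho -0.28) and with their length (-0.13), a description. With the GC trend subtracted, the ratios to sgRNA-NT with guides 69 and 71 were -1.62 and -2.17 for *AGRN*. Those for *HSPG2* were -1.71 and -2.99. *FOXF1* mRNA was also lower with guide 71 than with guide 69 (7.8 against 11.1 RPKM).

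Whether cutting *FOXF1* gave other member levels than cutting its enhancer was asked by a contrast that does not use the sgRNA-NT library. Relative to the mean of both enhancer guides, sgRNA-FOXF1 was at least 1.5-fold higher for 4 of 10 members (5.85% of all genes) and lower for 1 (3.53%). The higher genes were *HSPG2* (log2 difference 1.45), *AGRN* (1.08), *LAMA4* (1.0) and *NID1* (0.71), and the lower gene was *COL4A1* (-0.69). *COL18A1*, *NID2* and *LAMB1* were at 0.53, 0.46 and 0.44, while *LAMC1* (0.06) and *COL4A2* (-0.15) were close to 0. The type IV collagens were thus the only members at or below the enhancer guides' mean, and the median over the 10 was 0.49 against -0.03 for all genes. In limma, adjusted p was 0.449 to 0.811 for the members and 0% of all genes passed, with 732 genes and *LAMA4* (unadjusted p = 0.0095, SE 0.13) under 0.05 without adjustment. Without the 251 equal genes, 341 genes and 4 members (*COL4A1*, *NID1*, *HSPG2* and *AGRN*) passed, with the same limit on those p-values. The difference moved with the G and C content of transcripts (Spearman's rho 0.60 over 7559 genes, a description), and with that trend subtracted *AGRN* was at 0.65, *COL18A1* at 0.11, *HSPG2* at 1.10, *LAMA4* at 1.21 and *COL4A1* at -0.82.

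**Figure D3:**
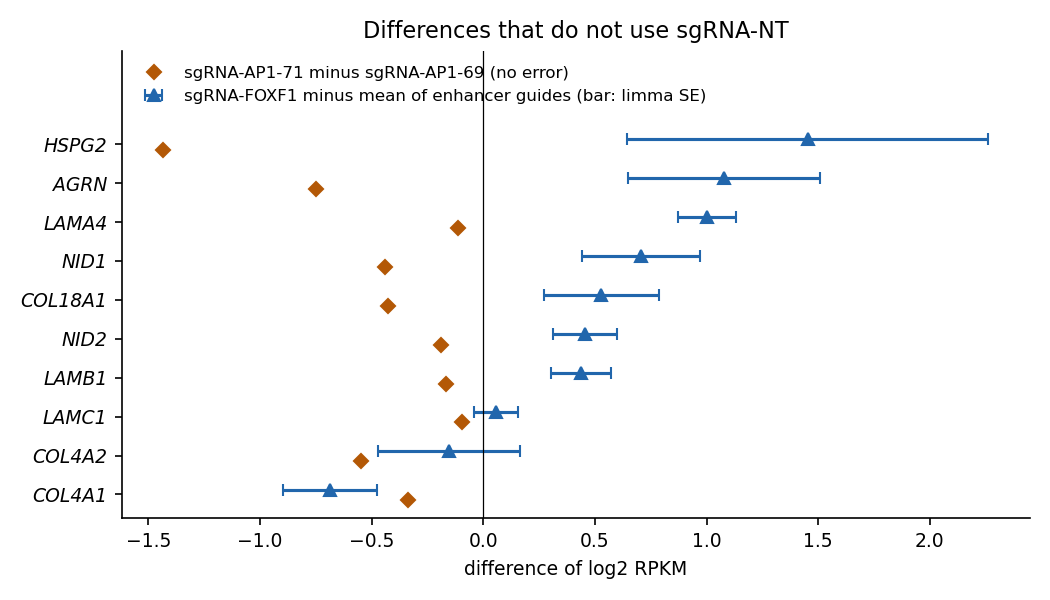
Log2 difference of sgRNA-FOXF1 from the mean of both enhancer guides for each member, shown with the log2 difference between the enhancer guides themselves. In the sgRNA-FOXF1 difference, *HSPG2*, *AGRN*, *LAMA4* and *NID1* lie highest, and *COL4A1* alone lies beyond 1.5-fold on the lower side.

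Other chains of the same families were mostly scarce. Of the remaining type IV and XV collagens, 4 of 5 were in the table and none reached the mean of 2 RPKM: *COL4A4*, *COL4A6* and *COL15A1* were at the floor in every library. Of 9 other laminin chains, 7 were in the table and 3 were compared. *LAMB2*, the β2 chain, was at 58.7, 36.5, 26.7 and 48.7 RPKM (sgRNA-NT, guide 69, guide 71, sgRNA-FOXF1), and thus 2-fold lower with guide 71 alone. *LAMB3*, the β3 chain of an epithelial laminin, was on the other side of the control at 4.1, 6.7, 7.1 and 11.8 RPKM. Of the α chains, *LAMA1* and *LAMA3* were at the floor, *LAMA5* at 1.0 to 1.1 RPKM and *LAMA2* at 1.1 to 2.0 RPKM, so *LAMA4* was the only α chain compared.

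Of 22 genes on the list of other basement membrane proteins, which also takes in microfibril proteins, 13 were in the table and 7 were compared. Their log2 ratios had medians of -1.08, -1.01 and -0.94, and 4, 4 and 3 of the 7 were at least 2-fold lower and 0 higher with guide 69, guide 71 and sgRNA-FOXF1. With both enhancer guides the median is the value of *THSD4*. *PXDN*, peroxidasin, which makes the sulfilimine cross-links of type IV collagen, was at 123.5, 44, 35 and 38.9 RPKM. Its log2 ratios were -1.49, -1.82 and -1.67. The microfibril protein gene *FBN1* (21.6, 7.8, 7.0 and 9.2 RPKM) and *FBLN1*, fibulin-1 (150.8, 62.9, 50.2 and 78.5 RPKM), were lower as well, as was *THSD4* (13.7, 6.5, 6.8 and 4.8 RPKM). *SPARC*, a secreted protein that binds collagen, was above the control in all 3 targeted libraries at 818.3, 1012.7, 900.7 and 934.4 RPKM. *NTN4*, netrin-4, was at 4.4, 4.5, 7.5 and 4.1 RPKM, and *FBLN2*, fibulin-2, at 100.9, 74.6, 57.5 and 137.7 RPKM, so the compared genes of this list did not all lie on 1 side of the control.

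Matrix receptors held 14 compared genes of 19, with medians of -0.36, -0.45 and -0.08, of which 3, 5 and 3 were 2-fold lower and 0, 1 and 2 were 2-fold higher. The lower ones included integrin chains that bind collagen or laminin. *ITGA2*, the α2 chain of a collagen receptor, was at 49, 19.2, 14.2 and 8.6 RPKM. *ITGB1*, the β1 partner of most matrix integrins, was at 283.1, 120.6, 96.1 and 113.6 RPKM, and *ITGA6*, a laminin receptor chain, at 107.9, 48.2, 41.5 and 42.4 RPKM. *SDC1*, the heparan sulfate proteoglycan syndecan-1 of the cell surface, was highest with sgRNA-FOXF1 at 134.0 RPKM against 40.9 RPKM in the control.

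Enzymes that fold and cross-link collagen (17 of 19 compared) had medians of -0.22, -0.39 and 0.07, with 1, 2 and 2 genes 2-fold lower and 0, 0 and 2 higher. *P3H2*, a prolyl 3-hydroxylase of type IV collagen, was at 48.6, 21.8, 26.3 and 10.8 RPKM, and like *COL4A1* it was lowest with sgRNA-FOXF1. *LOXL2*, a lysyl oxidase, was at 356.8, 211.2, 164.6 and 207.7 RPKM, and the lysyl hydroxylases *PLOD1* and *PLOD2* were also below the control. Genes of heparan sulfate synthesis and editing (12 of 19 compared) had medians of -0.15, -0.32 and -0.02, with 0, 1 and 1 genes 2-fold lower and 0, 0 and 1 higher. The gene behind both lower counts was *XYLT1*, a xylosyltransferase that starts the glycan chain, at 15.3, 9.5, 5.1 and 4.8 RPKM. The mRNAs of perlecan, agrin and type XVIII collagen thus lay further below the control than the median of the genes for glycan synthesis and editing. Neither these ratios nor the list medians are corrected for transcript length. After length correction *HSPG2*, *AGRN* and *COL18A1* were at -0.32, -0.68 and -0.84 with sgRNA-FOXF1, and the lists were not corrected. Proteases that cut the network (12 of 16 compared) had medians of -0.54, -0.68 and -0.38, with 3, 4 and 4 genes 2-fold lower and 0, 1 and 0 higher. Among the lower were the stromelysin gene *MMP3* (146.6, 59.5, 50 and 34.2 RPKM) and *PLAU*, urokinase (1110.8, 543.9, 707.6 and 401.7 RPKM), the latter at least 2-fold lower with guide 69 and sgRNA-FOXF1 only.

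The genes outside the 10 whose 3 log2 ratios came nearest to the member medians were found by Euclidean distance among 5087 genes whose mean was 5 RPKM or more. They were *ASAP1* (distance 0.14 on the log2 scale), *MRC2* (0.14), *COL6A3* (0.20), *MAP1A* (0.21) and *NAV1* (0.22). *COL6A3*, the α3 chain of type VI collagen, was at 180.8, 62.9, 51.2 and 82.9 RPKM, and *MRC2*, a collagen uptake receptor, at 241.0, 95.8, 69.1 and 108.9 RPKM. The likeness is over 3 ratios with 1 shared control, not corrected for length. All 5 genes have long transcripts, from 5719 bases in *MRC2* to 13891 in *NAV1*, against a median of 2902 for the genes compared. The part of length in the likeness was not tested.

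In the genome (GRCh37, the build of the files, GENCODE v44 lifted), *COL18A1* lies at chr21:46825080-46933634 on the plus strand, *LAMA4* at chr6:112429134-112576141 and *LAMB1* at chr7:107564244-107643658, both on the minus strand. Chromosome 1 holds 4 of the 10, *AGRN* at chr1:955500-991498 and *LAMC1* at chr1:182992555-183114727 on the plus strand, and *HSPG2* at chr1:22148737-22263803 and *NID1* at chr1:236139130-236228409 on the minus strand. *NID2* lies at chr14:52471527-52535777 on the minus strand. Apart from *COL4A1* and *COL4A2* no members are neighbours.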

How the data were processed

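Gene expression was measured by RNA-seq in 4 samples, 1 per condition. Reads (single, 65 bp) were mapped by the authors to hg19 using TopHat2. HTSeq-count gave reads per gene, which the authors turned into RPKM on the GENCODE v25 annotation before quantile normalization. For both tools the version is not given in the sources used here, and the labels and the paper name different RNA reagents (Trizol, Trisure) and TruSeq kits (RNA, Stranded mRNA). The deposited RPKM values have 1 decimal and a floor of 1 RPKM. The table also holds log2 ratios to sgRNA-NT computed by the authors, which were not used. No read counts were used, so depth is unknown and no counting intervals are given. Quantile normalization forces the 4 libraries to nearly the same distribution, so a change in total mRNA cannot be seen.

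Log2 ratios were taken without a pseudocount, for genes whose mean was 2 RPKM or more. Their error is unknown with 1 library per condition. limma 3.58.1 (R 4.3.3) was run on log2 RPKM of all 4 libraries in 3 groups, with the trend option for the variance, with Benjamini-Hochberg adjustment over all genes compared, and was tested on simulated data. Labels give no shared replicate numbers. Named genes were the members, up to 4 genes of each of 7 pathway lists with the largest mean absolute log2 ratio, *FOXF1*, *HRAS* and the 5 nearest profiles; *SPARC*, *NTN4*, *FBLN2*, scarce chains of the same families, genes that overlap members and markers are named in addition. The values of 1 listed gene are not reported here. The members and lists were chosen with earlier results of these data known. Transcript length and GC content were taken from canonical transcripts (GENCODE v44, lifted to GRCh37) and were known for 99.6% of the genes compared, and trends were subtracted with a cubic spline of 5 knots. Promoter sequences are from RefSeq (GRCh38.p14), a build other than that of the files, so no position was carried between them. Alternatives were a pseudocount of 1, centring, no filter or a filter at 5 RPKM, a 1.5-fold limit, length and GC correction, each guide alone, and other limma fits. Python 3.11.15 with numpy 2.4.6, pandas 2.3.3, scipy 1.17.1 and matplotlib 3.10.9 was used.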

Additional observations from a re-analysis of the deposited data

How the results depend on the processing

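With 1 library per condition the limits are the missing replicates, the floor of 1 RPKM, which hides the true level of *HSPG2* with guide 71, and an unknown depth. Length correction moved the member medians to -1.03 with guide 69, -1.41 with guide 71, -0.43 with sgRNA-FOXF1 and -1.23 for the mean of both guides, and the count of members at least 2-fold lower with sgRNA-FOXF1 to 2; that count was 8 at 1.5-fold. For the enhancer guides against sgRNA-NT, limma called 5 members with length correction, 9 with GC correction (1082 of 7559 genes) and 9 without the genes equal with both guides. Prior degrees of freedom in these fits were 6.43, 6.44 and infinite, against 1.40 in the main fit. For sgRNA-FOXF1 against the enhancer guides limma called 4 without the equal genes. Chosen after seeing the data were the length-corrected limma fit for the enhancer guides against sgRNA-NT, every GC correction, the fits without equal genes and the medians without *HSPG2* and *LAMA4*. With no filter limma called 354 of 12033 genes and 0 members. It called 0 genes without the trend, with a pseudocount of 1, with a filter at 5 RPKM and with the 3 targeted libraries as 1 group (1825, 1852, 1385 and 1739 at an unadjusted p under 0.05). With each guide alone the enhancer median ran from -1.80 to -1.36 and the sgRNA-FOXF1 difference from 0.36 to 0.65, with no test possible. No direction reversed in the alternatives run. Of 174 alternative values of single members, 145 stayed within the gene's own spread (SD) between the enhancer guides and 29 moved. That allowance is wide for some genes. *HSPG2*, with an SD of 1.01, counted as staying although its ratio with sgRNA-FOXF1 went from -1.12 to -0.32 under length correction. The cause of the moves was not tested. No paired analysis was possible because the labels give no replicate numbers shared between groups.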

Other observations

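Below the limit of 2 RPKM, *COL4A5*, a type IV collagen chain of kidney, eye and skin basement membranes, was at 1.5 RPKM with sgRNA-NT, 1.8 and 1.6 RPKM with guides 69 and 71, and 2.9 RPKM with sgRNA-FOXF1. It was the only other type IV collagen chain in the table above the floor, and like *LAMA4* it was highest with sgRNA-FOXF1. There is no replicate check of this, and the gene was chosen after its values were seen.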
